A study of Mus musculus with 72 samples.

Results

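Colon gene expression was compared between mice with acute colitis given TNFR-Ig together with an antibody against TWEAK and mice given the antibody against TWEAK alone. The members were chosen by the sample titles: 15 arrays of the combination and 14 of the antibody alone, 29 of the 72 arrays of the series, 1 array per mouse. All 29 mice were wild type Balb/c animals that had received rectal trinitrobenzene sulfonic acid (TNBS), a hapten that causes acute inflammation of the colon, as a 2% solution at 70 µg per g body weight. The agents were given 1 hour before TNBS, and the colon was taken on day 4. Both groups received the anti-TWEAK antibody mP2D10 at 10 mg/kg. The combination group also received TNFR-Ig, a soluble TNF receptor fused to an antibody Fc part and called TNFR-Fc in some labels, at 0.3 mg/kg, so that the comparison asks what TNFR-Ig added to the blockade of TWEAK. The series also holds naive mice, untreated colitic mice, and colitic mice given a control antibody or TNFR-Ig alone. The labels place 8 combination and 8 anti-TWEAK mice in experiment 7, and 7 and 6 in experiment 10; naive mice belong to experiment 10 alone.

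TNF is a cytokine released by macrophages and T cells that acts through the receptors encoded by Tnfrsf1a and Tnfrsf1b and switches on NF-kB, a transcription factor that raises cytokines, chemokines and adhesion molecules. TWEAK is a weaker relative of TNF that acts through Fn14, the product of Tnfrsf12a, a receptor that appears on epithelium and stroma after injury. In the inflamed colon both routes feed the recruitment of neutrophils and monocytes and the loss of absorptive epithelium.

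Each value was a log2 level per probe set as normalised by the authors, with a floor of 2.077. The number of arrays limits the precision of every comparison. Pairs of the 29 arrays correlated at 0.9811 to 0.9981 over all probe sets, and array medians differed little between the groups (4.60 to 4.76 in the combination). The colon label was borne out by its markers: the log2 level of Cdx2 was 13.93 to 14.31, of Krt20 13.86 to 14.25 and of Car1 14.94 to 15.24 over the 29 arrays. Genes of other tissues were also present. The mean log2 level of exocrine pancreas markers was 4.46 to 13.5 (median 9.38) in the combination and 4.13 to 12.2 (median 4.62) with anti-TWEAK. Svs2, a secretory protein of the seminal vesicle, stood far above the floor on 4 combination arrays of experiment 7 (replicates 5 to 8) and on no anti-TWEAK array. The specimens are whole tissue, in which fewer cells of a type and less RNA per cell cannot be told apart.

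Over both experiments no single gene separated the groups beyond the threshold. Genes did so in the contrast within experiment 7, taken from the fit of all arrays of the series. A fit of the arrays of experiment 7 by themselves called far fewer genes, as given below. In the linear model with a term for the experiment (limma, Benjamini-Hochberg adjustment over 12534 genes, threshold 0.05), 0 genes (0%) were called, the smallest adjusted p being 0.0807. At an unadjusted p under 0.05 there were 2258 genes, 981 with a higher level in the combination (7.83%) and 1277 with a lower one (10.2%). In experiment 7 the model called 1193 genes (9.52%), of which 620 were higher (4.95%) and 573 lower (4.57%) in the combination. In experiment 10 limma called 0 genes (0%), with 443 at an unadjusted p under 0.05 and a smallest adjusted p of 0.578. The difference of the contrast between the experiments passed for 7 genes (0.0558%), and had an unadjusted p under 0.05 for 1770. The median 95% interval half-width was 0.13 log2 units over both experiments, 0.17 in experiment 7 and 0.19 in experiment 10, and the interval lay within ±0.5 for 85.8%, 75.5% and 82% of genes.

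The number of calls in experiment 7 changed with the arrays that were fitted. A fit of the arrays of experiment 7 alone called 61 genes. Leaving out the 4 arrays with Svs2, combination replicates 5 to 8, left 15 genes. Leaving out combination replicates 7 and 8, which the labels place in a second array run with all of experiment 10, left 448. The setting without the Svs2 arrays also drops both arrays of the second run and leaves fewer combination mice, so these cannot be told apart there. Without 1 anti-TWEAK mouse the count was 548, 339, 632, 599, 474, 2509, 2654 and 538 for replicates 1 to 8 in turn. Leaving out combination replicate 1 gave 2877, and leaving out replicates 3, 4, 6 and 8 gave 660, 635, 482 and 667. Of the 1193 genes, 270 passed in all 16 settings that left out 1 array, and 34 of them also in 8 other planned settings. Many called genes named below were not among the 270, so they lost the call in at least 1 of the 16 settings. These include Ngp, Mmp8, Csf3, Ccl4, Marco, Itgam, Prok2, Ifitm6, Tnfrsf1b, Cd163, Cd3e and Irf7. They also include H2-Aa, H2-Eb1, H2-Ab1, Abcb1a, Cdhr5, Car4, Aqp8, Ppara, Ehhadh and Acadm. Of 83 called genes examined one by one, among them every called gene named here, 16 kept the call with experiment 7 fitted alone and 40 without the second run. Without the 4 arrays with Svs2, 4 kept it: Cd3d, Arntl, Anks4b and Etv5. Where a gene had another probe set bright enough to test, 13 kept the call there and 21 lost it. Over both experiments the count of 0 became 29 and 79 without anti-TWEAK replicates 6 and 7 of experiment 7, and 59 without combination replicate 1 of that experiment. It became 7, 47, 1 and 1 without combination replicates 1, 2, 3 and 7 of experiment 10.

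The overall state of each colon was read from genes that separate untreated colitic from naive mice, although the filter on dim genes and the residual spread behind those calls came from all 72 arrays. The colitis score of a mouse is the mean log2 level of 569 genes higher in untreated colitis than in naive colon minus that of 344 genes lower, each changed by at least 1 log2 unit. Naive mice scored -1.95 ± 0.076 (SD, n = 8) and untreated colitic mice 2.20 ± 0.82 (SD, n = 8). The labels of naive replicate 1, which scored -1.91, contradict each other, and it was kept as naive by its title. In experiment 7 the anti-TWEAK mice lay at -0.35, 2.12 and 2.45 (lowest, median and highest of 8), and the combination mice at -0.50, 0.14 and 1.87. Of the anti-TWEAK mice, 6 lay between 2.05 and 2.45, above every combination mouse, and replicates 6 and 7 lay at 0.016 and -0.35. The SD of the score ranged from 0.076 in naive mice to 1.13 in the anti-TWEAK mice of experiment 7. The fit of all arrays shares the residual spread of a gene among the groups. The errors it gives within experiment 7 can therefore be too small, which was not tested gene by gene. The experiment 10 scores were -0.36, 0.27 and 1.49 for 6 anti-TWEAK mice and -0.99, -0.029 and 1.49 for 7 combination mice, so that the ranges overlapped widely.

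The difference, combination minus anti-TWEAK, was -0.77 over both experiments (permutation test within experiments, two-sided, p = 0.0393). It was -1.23 in experiment 7 (exact permutation test, p = 0.0333) and -0.20 in experiment 10 (exact permutation test, p = 0.664). Without the 4 arrays with Svs2 the difference was -0.65 (permutation test, p = 0.11), and without the 2 arrays of the second run -0.71 (permutation test, p = 0.0666). The call did not survive the loss of 1 mouse in 14 of 29 cases, where p lay between 0.0527 and 0.0678 and the difference between -0.68 and -0.75. These were anti-TWEAK replicates 1, 2, 3, 4, 5 and 8 and combination replicates 2, 3, 4, 6 and 8 of experiment 7, and anti-TWEAK replicates 1 and 6 and combination replicate 7 of experiment 10. The distance of a mouse's score from its group mean gave no call (difference -0.053, permutation test, p = 0.777).

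**Figure D1:**
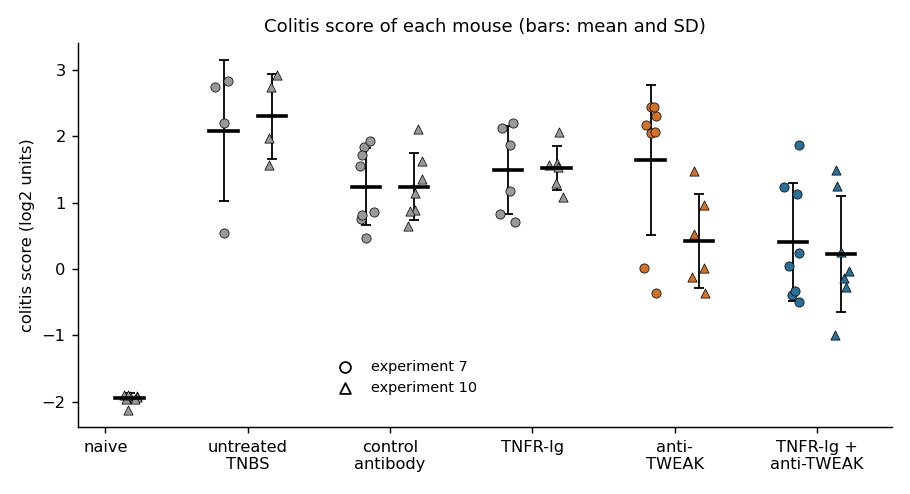
Colitis score of each mouse in log2 units (y axis) by group (x axis), circles for experiment 7 and triangles for experiment 10, with the mean and SD as bars. Naive mice sit near -1.95, 6 of 8 anti-TWEAK mice of experiment 7 sit above 2, and the combination mice of both experiments spread from -0.99 to 1.87.

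Most genes that separated the groups in experiment 7 had the opposite sign in colitis. Untreated colitis against naive colon, a contrast of other arrays within the same fit, called 5989 genes (47.8%), 2785 higher (22.2%) and 3204 lower (25.6%). Of the 620 genes higher in the combination, 485 were genes that fell in colitis, which is 78.2% of the former and 15.1% of the latter, and 1 was a gene that rose. Of the 573 genes lower in the combination, 431 were genes that rose in colitis (75.2% of the former, 15.5% of the latter), and 1 was a gene that fell. In experiment 10, whose arrays are separate, the 620 higher genes had a median log2 change of -0.024, against -0.011 over all genes, and 38.7% were above 0, against 44.2% of all genes. The 573 lower genes had a median of -0.018, and 62% were below 0, against 55.8%.

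**Figure D2:**
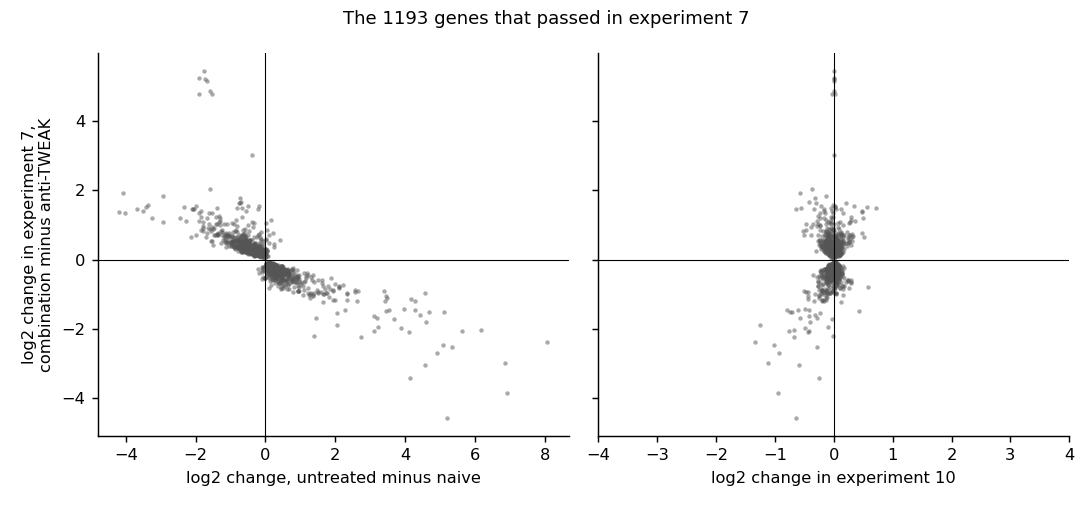
The 1193 genes that passed in experiment 7, with their log2 change there (combination minus anti-TWEAK, y axis) against the log2 change in untreated colitis (left) and against the change in experiment 10 (right). The points above 4 are the seminal vesicle genes; the others run from upper left to lower right in the left panel, and stand in a column near 0 in the right panel, where the higher genes have a median of -0.024.

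Among the ligands and receptors, Tnfrsf12a and Tnfrsf1b were lower in the combination in experiment 7. Of 13 members of the TNF and TWEAK list that were tested, 1 was higher and 3 were lower in experiment 7 (4.95% and 4.57% of all genes), and the median log2 change was -0.086, against -0.00058 over all genes. Tnfrsf12a, which encodes Fn14, had log2 levels of 8.17, 8.86 and 9.19 (lowest, median and highest) with anti-TWEAK and 7.24, 7.77 and 8.92 with the combination in experiment 7. Of the 8 combination mice, 6 lay below every anti-TWEAK mouse. Its log2 change was -0.94 ± 0.24 (SE, adjusted p = 0.0146). The call was kept in the 16 leave-one-out settings and lost with experiment 7 fitted alone (adjusted p = 0.0558), with the 2 groups fitted alone (0.0562) and without the arrays with Svs2 (-0.85, 0.167). In experiment 10 the levels were 8.07, 8.65 and 8.76 with anti-TWEAK and 7.27, 8.32 and 9.18 with the combination, and 3 of 7 combination mice lay above every anti-TWEAK mouse (-0.15 ± 0.27). The naive levels were 6.60, 7.38 and 8.18.

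Tnfrsf1b, the TNF receptor of leukocytes, had levels of 10.11, 11.05 and 11.25 with anti-TWEAK and 9.92, 10.22 and 10.89 with the combination in experiment 7, and every combination mouse lay below the anti-TWEAK median. Its change was -0.51 ± 0.15 (adjusted p = 0.023), and -0.28 ± 0.16 in experiment 10. Tnfrsf1a, the broadly expressed TNF receptor, changed by -0.25 ± 0.11 in experiment 7 (adjusted p = 0.137). Cd163, a macrophage scavenger receptor that also binds TWEAK, was lower by a log2 change of -0.94 ± 0.32 in experiment 7 (adjusted p = 0.0498), against 0.039 ± 0.36 in experiment 10. Tnfsf13b, the B cell survival factor BAFF, was higher by 0.32 ± 0.11 (adjusted p = 0.044), against -0.13 ± 0.12, and had 0.16 on another probe set (adjusted p = 0.708). Cd40, the costimulatory receptor of B cells and macrophages, and Tnfrsf13b, a BAFF receptor, had changes over both experiments of 0.23 ± 0.094 and 0.30 ± 0.14, with adjusted p of 0.212 and 0.247. Tnf itself was too dim to be tested, with a highest log2 level of 3.62 in the combination and 3.27 with anti-TWEAK.

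None of 14 NF-kB subunits and inhibitors passed in limma in either experiment. Over both, 5 had an unadjusted p under 0.05, all with a lower level in the combination, against 10.2% of all genes. The 5 were inhibitors and the coactivator gene Bcl3, several of them induced by NF-kB itself. Tnfaip3, which encodes the ubiquitin-editing enzyme A20, had a log2 change of -0.31 ± 0.093 (adjusted p = 0.126), and the value was alike in experiment 7 (-0.30) and experiment 10 (-0.33). Nfkbia, which encodes the inhibitor IkBα, had -0.17 ± 0.056, Nfkbid -0.31 ± 0.12, Nfkbib -0.20 ± 0.095 and Bcl3 -0.25 ± 0.12. The subunit genes Rela, Relb and Nfkb2 had -0.062, 0.073 and 0.058. Of 35 canonical targets, 29 were below 0 over both experiments, 22 of them at an unadjusted p under 0.05, against 10.2% of all genes. Their median was -0.36, against -0.0031 over all genes. In experiment 7, 1 of the 35 was higher (4.95% of all genes) and 3 were lower (4.57%). The first was the dendritic cell and lymphocyte marker Cd83 (0.80 ± 0.25, adjusted p = 0.0346). The others were Csf3, the platelet and endothelial selectin Selp (-1.52 ± 0.50, adjusted p = 0.0438) and the mitochondrial dismutase Sod2 (-0.27 ± 0.083, adjusted p = 0.0308). The stress gene Gadd45b had -0.49 in experiment 7 and -0.44 in experiment 10, and passed in neither.

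The chemokine Cxcl10, which draws activated T cells, was the inflammatory gene nearest to the threshold over both experiments. Its promoter is shown because it carries several matches to the kB consensus, the letters bound by NF-kB. The window runs from 250 bases before to 50 bases after the RefSeq start (GRCm38.p6, chr5:92348840-92349139, minus strand), and capitals mark the matches.
Cxcl10: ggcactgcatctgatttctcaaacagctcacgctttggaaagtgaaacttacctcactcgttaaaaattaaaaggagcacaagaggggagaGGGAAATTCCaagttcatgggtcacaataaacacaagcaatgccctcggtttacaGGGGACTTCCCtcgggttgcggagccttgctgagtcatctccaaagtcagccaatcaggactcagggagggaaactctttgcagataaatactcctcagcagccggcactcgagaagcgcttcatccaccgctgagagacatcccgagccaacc
The 3 matches, searched on both strands, start at -159, -104 and -103 from the gene's start, and the last 2 overlap. Of 32851 promoter windows of this length, 8.46% held at least 1 match and 0.186% at least 3. A match describes the letters only.

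In experiment 7, Cxcl10 had log2 levels of 8.25, 8.84 and 9.95 with anti-TWEAK and 7.01, 8.01 and 8.54 with the combination. In experiment 10 the levels were 8.26, 8.90 and 9.76 with anti-TWEAK and 6.17, 7.98 and 9.04 with the combination. All 8 combination mice of experiment 7 and 6 of 7 of experiment 10 lay below the anti-TWEAK median, although the ranges overlapped in both. The log2 change was -1.12 ± 0.27 over both experiments (adjusted p = 0.0901), -1.01 ± 0.37 in experiment 7 (adjusted p = 0.06) and -1.25 ± 0.41 in experiment 10. The test of the difference between experiments gave 0.24 (adjusted p = 0.865).

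Ccl4, a chemokine of monocytes and T cells, had levels of 2.08, 4.89 and 6.75 with anti-TWEAK and 2.08, 2.25 and 4.58 with the combination in experiment 7, and fell by 1.88 ± 0.61 (adjusted p = 0.041). In experiment 10 it lay at 2.08, 4.01 and 4.87 against 2.08, 2.08 and 3.22, with 5 of 7 combination mice near the floor (-1.25 ± 0.68). Its neighbour Ccl3 had medians of 11.79 and 10.01 in experiment 7, and of 11.10 and 8.34 in experiment 10, with ranges as wide as 2.22 to 12.35. Its log2 change over both was -2.83 ± 0.84 (adjusted p = 0.126). The neutrophil chemokines Cxcl1 and Cxcl2 had -1.47 ± 0.55 and -1.70 ± 0.59 over both (adjusted p = 0.18 and 0.159). Of 23 chemokines tested, 1 passed in experiment 7, Ccl4, a share close to the 4.57% of all genes that were lower. Over both experiments 10 had a lower level at an unadjusted p under 0.05 (10.2% of all genes) and 1 a higher one.

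Among the cytokines, 3 of 12 tested were lower in experiment 7, against 4.57% of all genes. Csf3, the growth factor G-CSF that drives neutrophil production, fell by 2.19 ± 0.60 (adjusted p = 0.0189) in experiment 7, where anti-TWEAK mice lay at 2.08, 4.95 and 6.87 and combination mice at 2.08, 2.15 and 3.94. In experiment 10 both groups stayed near the floor, at no more than 2.24. Il11, a stromal cytokine, fell by 0.98 ± 0.31 (adjusted p = 0.0365) and Il1rn, the antagonist of the interleukin 1 receptor, by 0.28 ± 0.093 (adjusted p = 0.0456) in experiment 7, with 0.034 and -0.014 in experiment 10. On another probe set Il1rn had -0.15 (adjusted p = 0.454). Il1b, the main secreted interleukin 1, had medians of 12.84 with anti-TWEAK and 10.91 with the combination in experiment 7, and 12.39 and 10.07 in experiment 10. The log2 change was -1.83 ± 0.54 over both (adjusted p = 0.126), with lowest and highest mice of 6.12 and 13.32 in the combination of experiment 10 alone.

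Granule genes of neutrophils, Ngp and Mmp8, had the largest falls of experiment 7. All 15 neutrophil markers tested were below 0 over both experiments, 13 of them at an unadjusted p under 0.05, against 10.2% of all genes. Their median log2 change was -1.7, and 3 were lower in experiment 7, against 4.57% of all genes. Ngp, a granule protein of immature neutrophils, lay between 2.08 and 11.02 with anti-TWEAK and between 2.08 and 8.58 with the combination, whose median was 2.08. In all, 5 of 8 combination mice and 2 of 8 anti-TWEAK mice were near the floor in experiment 7 (-4.57 ± 1.24, adjusted p = 0.0177). In experiment 10 all 7 combination mice and 5 of 6 anti-TWEAK mice were near the floor. Mmp8, neutrophil collagenase, had medians of 9.85 and 2.75 in experiment 7 (-3.84 ± 1.18, adjusted p = 0.0322) and of 3.24 and 2.23 in experiment 10 (-0.95 ± 1.32). Fpr2, a receptor for formyl peptides, had -2.37 ± 0.80 (adjusted p = 0.0469). Ngp, Mmp8 and Fpr2 did not keep their calls in all leave-one-out settings.

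Other neutrophil and myeloid genes had changes of like size in both experiments and passed in neither. S100a8, a calprotectin subunit, had levels of 11.45, 14.66 and 14.86 with anti-TWEAK and 9.73, 12.61 and 14.34 with the combination in experiment 7. In experiment 10 it lay at 10.67, 12.94 and 14.66 against 7.64, 11.14 and 14.20, so that the groups overlapped in both. The changes were -1.46 ± 0.69 and -1.72 ± 0.77. Lcn2, the iron-sequestering lipocalin of neutrophils and epithelium, had -1.70 ± 0.83 and -1.97 ± 0.92, Hdc, the histamine-forming enzyme, -2.52 ± 1.01 and -2.36 ± 1.12, and Il1r2, the interleukin 1 decoy receptor, -2.47 ± 0.86 and -2.14 ± 0.96. Chil3, a chitinase-like protein of myeloid cells, had -2.86 ± 1.07 and -2.62 ± 1.20. Naive mice had a median S100a8 level of 3.38.

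Of 20 macrophage and monocyte markers, 4 were lower in experiment 7, against 4.57% of all genes. Over both experiments 18 were below 0, while 48.7% of all genes were above 0. Cd14, the lipopolysaccharide coreceptor, had levels of 10.93, 12.14 and 12.41 with anti-TWEAK and 10.65, 11.03 and 11.83 with the combination. Of the 8 anti-TWEAK mice, 6 lay above every combination mouse, with a change of -0.76 ± 0.20 (adjusted p = 0.0145). The call was kept in the 16 leave-one-out settings and lost with experiment 7 fitted alone (adjusted p = 0.0946), with the 2 groups fitted alone (0.0685) and without the arrays with Svs2 (0.104). Experiment 10 gave -0.27 ± 0.22. Marco, a scavenger receptor of macrophages, had medians of 7.12 and 2.18 (-3.41 ± 1.01, adjusted p = 0.0282), and Itgam, the CD11b integrin chain, 3.91 and 2.36 (-1.17 ± 0.35, adjusted p = 0.0287). Cd163, given above, was the other. Marco, Itgam and Cd163, unlike Cd14, did not keep their calls in all 16 leave-one-out settings. Siglece, an inhibitory lectin of myeloid cells, was lower by a log2 change of -2.68 ± 0.72 (adjusted p = 0.0176), Prok2, a chemokine-like peptide of neutrophils, by -3.04 ± 0.83 (adjusted p = 0.0195), and the interferon-induced membrane protein gene Ifitm6 by -2.98 ± 0.85 (adjusted p = 0.0234). Of 19 matrix proteases and inhibitors, 3 were lower in experiment 7, against 4.57% of all genes: Mmp19 (-0.66 ± 0.19, adjusted p = 0.0248), the aggrecanase Adamts4 (-0.94 ± 0.29, adjusted p = 0.0321) and Mmp8. Stromelysin 1, encoded by Mmp3, had -1.63 ± 0.57 (adjusted p = 0.0523).

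**Figure D3:**
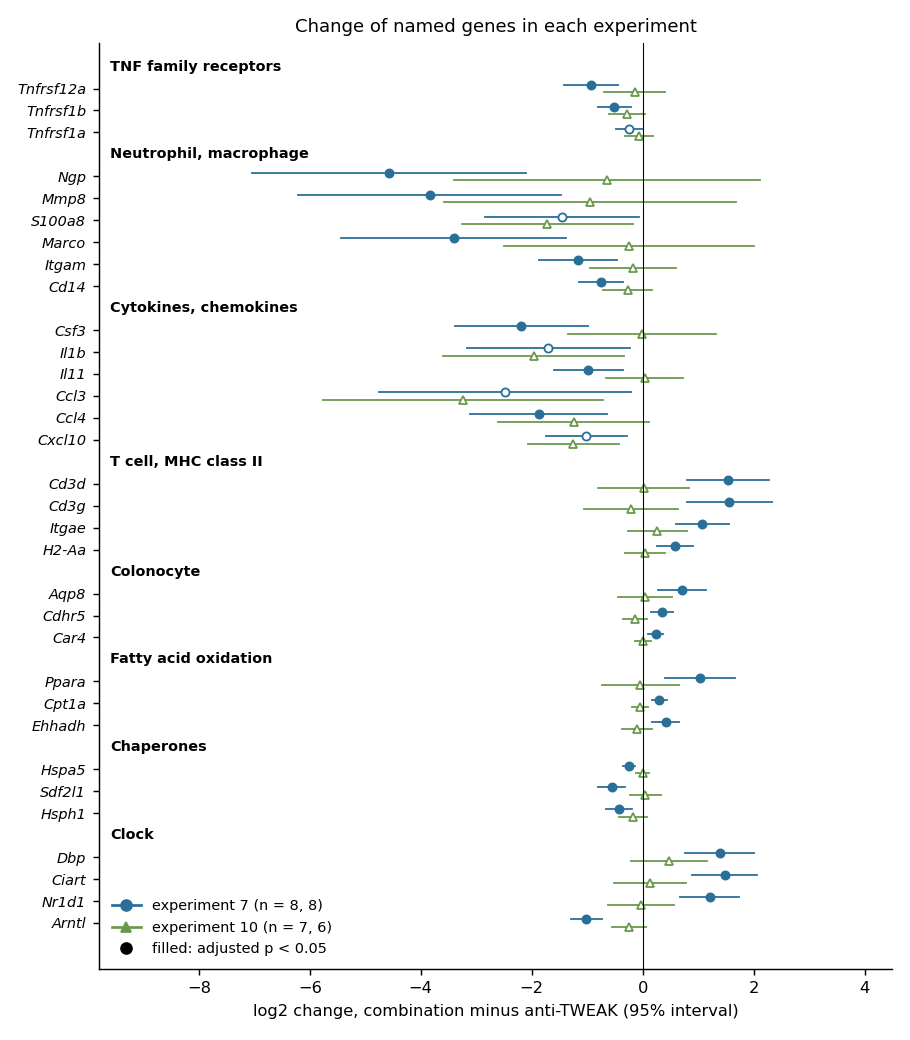
Log2 change (combination minus anti-TWEAK, x axis) of named genes grouped by role (y axis), circles for experiment 7 (8 against 8 mice) and triangles for experiment 10 (7 against 6), with 95% intervals and filled symbols for an adjusted p under 0.05. Cxcl10, Ccl3, Il1b and S100a8 lie left of 0 in both experiments, whereas the intervals of Cd3d, Aqp8, Cpt1a and Hspa5 exclude 0 in experiment 7 and include it in experiment 10. The difference between experiments passed for none of the genes drawn.

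Several T cell genes were higher in the combination in experiment 7. Of 12 T and NK cell markers, 4 were higher (4.95% of all genes) and none lower, with a median log2 change of 0.64, against -0.061 in experiment 10. Cd3d, a chain of the T cell receptor complex, had levels of 2.99, 3.68 and 4.75 with anti-TWEAK and 4.62, 5.14 and 7.69 with the combination. The highest 5 combination mice lay above every anti-TWEAK mouse (1.54 ± 0.37, adjusted p = 0.01). In experiment 10 the groups lay at 4.62, 5.50 and 6.19 against 4.75, 5.46 and 6.28 (0.015 ± 0.41). Cd3g, another chain of that complex, was higher by 1.56 ± 0.38 (adjusted p = 0.0105) in experiment 7 and changed by -0.22 ± 0.42 in experiment 10, and Cd3e was higher by 0.65 ± 0.19 (adjusted p = 0.0239). Itgae, the CD103 integrin chain of intraepithelial lymphocytes, had levels of 4.48, 5.63 and 6.57 with anti-TWEAK and 6.07, 6.69 and 7.57 with the combination, and 6 combination mice lay above every anti-TWEAK mouse (1.07 ± 0.24, adjusted p = 0.00665). Without the arrays with Svs2, Cd3d kept its call, while Cd3g had 1.94 (adjusted p = 0.0536) and Itgae 1.03 (adjusted p = 0.10). Another probe set of Itgae had 0.15 (adjusted p = 0.627), so the probe sets of this gene disagree. Cd8a, the coreceptor of cytotoxic T cells, had 0.49 ± 0.24 in experiment 7 and -0.54 ± 0.26 in experiment 10 (difference 1.03, adjusted p = 0.195).

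Of 7 MHC class II genes, 3 were higher in experiment 7, against 4.95% of all genes, and all 7 were above 0 in both experiments. The 3 were H2-Aa (0.58 ± 0.16, adjusted p = 0.0207), H2-Eb1 (0.67 ± 0.19, adjusted p = 0.0212) and H2-Ab1 (0.60 ± 0.19, adjusted p = 0.0357). None of the 3 kept its call in all leave-one-out settings. H2-Aa lay at 10.47, 10.85 and 11.77 with anti-TWEAK and at 11.14, 11.52 and 12.10 with the combination, and 6 of 8 anti-TWEAK mice lay below every combination mouse. In experiment 10 its change was 0.044 ± 0.18. Of 22 interferon-stimulated genes, 3 were higher in experiment 7, against 4.95% of all genes: the RNA sensor Ifih1 (0.33 ± 0.084, adjusted p = 0.0129), the interferon regulator Irf7 (1.22 ± 0.40, adjusted p = 0.0425) and the RNA-binding Ifit1 (1.45 ± 0.49, adjusted p = 0.0468). Their changes in experiment 10 were -0.006, -0.24 and -0.34. The list as a whole had a median of 0.30 in experiment 7 and of -0.16 in experiment 10. In experiment 7, 15 of the 22 were above 0 and 7 below, among the latter Cxcl10, a member of the same list. Cxcl10 was below 0 in experiment 10 too, as was the median of the list there.

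In the epithelium, 4 of 23 colonocyte markers were higher in experiment 7, against 4.95% of all genes, and none lower, with a median of 0.071. They were the drug exporter Abcb1a (0.34 ± 0.093, adjusted p = 0.0207), the brush border cadherin Cdhr5 (0.35 ± 0.10, adjusted p = 0.0221), carbonic anhydrase gene Car4 (0.23 ± 0.067, adjusted p = 0.025) and the water channel Aqp8 (0.71 ± 0.22, adjusted p = 0.0315). None of the 4 kept its call in all leave-one-out settings. Aqp8 had medians of 10.41 and 11.30 in experiment 7 and of 11.69 and 11.46 in experiment 10, where naive mice had 12.50. The colonocyte list as a whole had a median of -0.032 in experiment 10. There 17 of 23 markers were below 0, while 44.2% of all genes were above 0. Spdef, a transcription factor of goblet cells, fell by 0.46 ± 0.15 (adjusted p = 0.0395), the only one of 15 goblet markers to pass, against 9.52% of all genes. Ereg, an epidermal growth factor family ligand, fell by 0.84 ± 0.22 (adjusted p = 0.0142) and Anxa1, a glucocorticoid-induced annexin, by 0.16 ± 0.047 (adjusted p = 0.0259), 2 of 18 defence and repair genes, against 4.57% of all genes. Another probe set of Anxa1 had -0.35 (adjusted p = 0.369). Casp1, the inflammasome protease, was higher by 0.22 ± 0.059 (adjusted p = 0.0147).

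The 7 genes whose change differed between the experiments included another brush border gene. Anks4b, a scaffold of the links between microvilli, had levels of 10.55, 10.79 and 11.44 with anti-TWEAK and 11.10, 11.48 and 11.57 with the combination in experiment 7. In experiment 10 it had 11.32, 11.41 and 11.64 against 11.09, 11.24 and 11.47, and 6 of 7 combination mice lay below every anti-TWEAK mouse. The changes were 0.50 ± 0.087 and -0.19 ± 0.10, a difference of 0.69 (adjusted p = 0.0178). H3f3b, which encodes histone H3.3, did not overlap in experiment 7, at 5.40, 6.68 and 7.55 against 7.58, 8.15 and 9.15 (1.51 ± 0.30). In experiment 10 it lay at 5.10, 5.95 and 6.74 against 4.79, 5.48 and 6.08 (-0.56 ± 0.33), and the difference was 2.07 (adjusted p = 0.0484). Etv5, an ETS family transcription factor, was -0.58 and 0.24, a difference of -0.81 (adjusted p = 0.0484). The other 4 were Tmem106a (0.62), Adprm (0.57), Fam149b (0.43) and Myadm (-0.32), each at an adjusted p of 0.0484. The count was 0 when every probe set was tested, when the 2 groups were fitted alone and without the 4 arrays with Svs2, and 1735 with array weights.

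Of 16 fatty acid oxidation genes, 6 were higher in experiment 7 and none lower, against 4.95% and 4.57% of all genes. Of 20 oxidative phosphorylation genes none was higher and 1 lower there, with a median of 0.019. Cpt1a, the carnitine transferase that lets fatty acids into mitochondria, had levels of 11.64, 12.04 and 12.23 with anti-TWEAK and 12.02, 12.27 and 12.59 with the combination (0.30 ± 0.066, adjusted p = 0.0064), and 0.12 on another probe set (adjusted p = 0.402). The others were Ehhadh (0.41 ± 0.12), Acadm (0.21 ± 0.064) and Hadha (0.24 ± 0.079), which encode enzymes of beta-oxidation, and the regulators Ppara (1.03 ± 0.31) and Ppargc1a (0.39 ± 0.13), at adjusted p of 0.0276 to 0.046. In experiment 10 all 6 had values below 0, from -0.17 for Hadha to -0.034 for Ppargc1a. Of 16 heat shock and endoplasmic reticulum chaperone genes, 7 were lower in experiment 7, against 4.57% of all genes, and none higher. Hspa5, which encodes the chaperone BiP, lay at 13.86, 14.08 and 14.19 with anti-TWEAK and at 13.61, 13.78 and 14.06 with the combination, 5 of 8 combination mice being below every anti-TWEAK mouse (-0.25 ± 0.053, adjusted p = 0.00468). Its cochaperone Sdf2l1 fell by 0.56 ± 0.12 (adjusted p = 0.0064), with 7 of 8 combination mice below every anti-TWEAK mouse, the cytosolic Hsp90aa1 by 0.27 ± 0.072 (adjusted p = 0.0168) and Hsph1 by 0.43 ± 0.12 (adjusted p = 0.0168). On other probe sets Hsp90aa1 had -0.11 (adjusted p = 0.296) and Hsph1 -0.80 (adjusted p = 0.0563). The changes in experiment 10 were -0.0018, 0.045, -0.066 and -0.18. All 23 cell cycle genes were below 0 over both experiments, while 48.7% of all genes were above 0. In experiment 7, 2 of them were lower (9.52% of all genes passed there, 4.57% lower), the replicative helicase genes Mcm3 (-0.56 ± 0.18, adjusted p = 0.0348) and Mcm7 (-0.38 ± 0.13, adjusted p = 0.0428).

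The circadian clock genes had the largest share of members that passed: of 15 tested, 8 were higher and 4 lower in experiment 7, where 9.52% of all genes passed. The clock is a loop in which the product of Arntl, with its partner, binds E-box letters and switches on Per, Cry, Nr1d, Ciart and Dbp genes, whose products then turn it off. Dbp and its relative Tef bind D-box letters. The promoters of Ciart and Per3 are shown because each carries more than 1 copy of such a motif, in capitals.
Ciart: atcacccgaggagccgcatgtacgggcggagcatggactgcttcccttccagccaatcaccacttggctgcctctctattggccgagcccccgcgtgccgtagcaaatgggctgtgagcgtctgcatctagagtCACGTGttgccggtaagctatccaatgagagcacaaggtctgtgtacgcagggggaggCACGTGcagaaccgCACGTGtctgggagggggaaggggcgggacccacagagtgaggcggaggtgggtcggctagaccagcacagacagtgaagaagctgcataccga
Per3: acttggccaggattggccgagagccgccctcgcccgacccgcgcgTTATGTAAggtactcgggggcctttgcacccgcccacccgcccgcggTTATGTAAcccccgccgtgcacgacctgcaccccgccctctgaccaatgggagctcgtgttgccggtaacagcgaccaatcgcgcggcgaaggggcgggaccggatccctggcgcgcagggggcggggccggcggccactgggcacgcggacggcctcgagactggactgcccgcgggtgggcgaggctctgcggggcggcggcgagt
Both windows run from 250 bases before to 50 after the RefSeq start on GRCm38.p6, that of Ciart at chr3:95882179-95882478 and that of Per3 at chr4:151044616-151044915, each on the minus strand. Ciart holds the E-box CACGTG at -116, -58 and -44 from its start, and 0.0883% of 32851 promoter windows held 3 or more. Per3 holds 2 copies of the D-box TTANGTAA, at -205 and -158, a number reached by 0.0822% of windows. Both strands were searched, and the E-box and D-box do not overlap in these windows. Of 16 listed clock genes 14 had 1 or more windows, 19 in all. In any of its windows, 5 of these genes had an E-box and 1 a D-box. Counted per window, 7.15% of all promoter windows held an E-box and 2.32% a D-box. Matches are letters, not measured sites.

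Arntl, the activator, had levels of 8.79, 9.14 and 9.46 with anti-TWEAK and 7.47, 8.08 and 8.77 with the combination in experiment 7. The groups did not overlap, and the change of -1.02 ± 0.14 had the smallest adjusted p of the experiment, 7.75e-06. In experiment 10 the levels were higher in both groups, at 9.88, 10.28 and 10.85 and at 9.58, 10.01 and 10.53, and the change was -0.25 ± 0.16. The test of the difference gave -0.77 (adjusted p = 0.139). Over both experiments Arntl changed by -0.66 ± 0.14 (adjusted p = 0.0807). In the other colitic groups of experiment 7, the median of Arntl was 9.36 untreated, 9.30 with control antibody and 9.18 with TNFR-Ig.

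The targets of the activator named here had the opposite sign in experiment 7. Of the 8 higher and 4 lower clock genes, some in each direction are not named, so the signs of all targets are not given. Ciart, a repressor, lay at 3.16, 4.16 and 4.97 with anti-TWEAK and at 4.35, 5.65 and 6.99 with the combination in experiment 7 (1.48 ± 0.29, adjusted p = 0.00339). In experiment 10 it stayed between 2.63 and 3.14 in both groups. Dbp had medians of 9.71 and 11.41 in experiment 7 (1.39 ± 0.31, adjusted p = 0.0067) and of 9.29 and 9.83 in experiment 10 (0.47 ± 0.35), where 6 of 7 combination mice lay above the anti-TWEAK median. Over both experiments it changed by 0.98 ± 0.23 (adjusted p = 0.0905). Per3, a period gene, had medians of 10.62 and 11.53 in experiment 7 and of 9.48 and 9.88 in experiment 10, and every combination mouse of both experiments lay above the anti-TWEAK median of its experiment. Its changes were 0.70 ± 0.16 (adjusted p = 0.00817) and 0.28 ± 0.18. The nuclear receptor repressors Nr1d1 and Nr1d2 were higher by 1.21 ± 0.27 and 0.37 ± 0.088, and Tef by 0.64 ± 0.15, at adjusted p of 0.00635 to 0.01. In experiment 10 these 3 had -0.032, 0.13 and 0.31. Per2 had 0.26 ± 0.17 and 0.38 ± 0.19 and passed in neither. When 1 array was left out, Arntl, Ciart, Dbp, Per3, Tef, Nr1d1 and Nr1d2 kept their calls. Without the arrays with Svs2, Arntl kept its call and the other 6 had adjusted p of 0.0792 to 0.157. With the 2 groups fitted alone, Dbp, Per3, Tef and Nr1d2 had 0.0573 to 0.0629, and with experiment 7 fitted alone Nr1d1, Dbp and Nr1d2 had 0.0671 to 0.0769. Another probe set gave Dbp 2.44 (adjusted p = 0.00122) and Per3 0.71 (adjusted p = 0.0551). The hour at which each mouse was killed was not given in those sources that were used here, so a difference in the agents and a difference in the hour of killing cannot be told apart for these genes. In untreated colitis against naive colon, 3 of the 15 were higher (22.2% of all genes) and 8 lower (25.6%), with a median of -1.15. Ciart had a median of 5.58 in naive mice, and of 3.02 and 2.71 in untreated mice of experiments 7 and 10. Arntl had 9.16, and 9.36 and 9.97. Whether the clock genes followed the state of the colon was not tested.

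**Figure D4:**
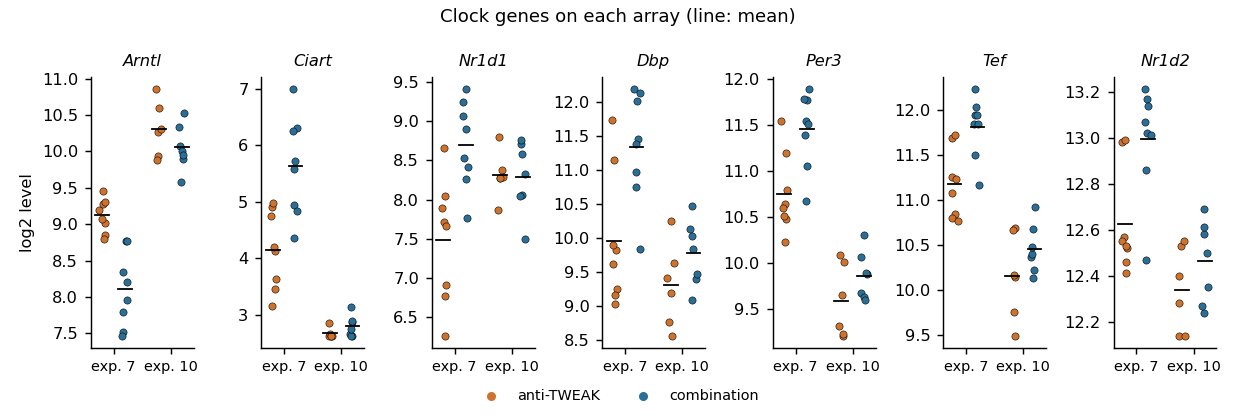
Log2 level (y axis) of 7 clock genes on each array, by experiment (x axis), orange for anti-TWEAK and blue for the combination, with the mean as a line. Arntl does not overlap between the groups in experiment 7, and the other 6 genes sit higher in the combination there, with ranges that overlap.

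Over both experiments, the genes with the smallest p other than clock genes and Cxcl10 were these. Pias3, an inhibitor of STAT3 signalling, had 0.18 ± 0.039, Trim7, a ubiquitin ligase, 0.44 ± 0.10, and Lin7b, a polarity scaffold, 0.59 ± 0.14, each at an adjusted p of 0.0807. N4bp1, a Nedd4-binding protein, had -0.23 ± 0.052 and Ncoa5, a nuclear receptor coactivator, -0.17 ± 0.038, also at 0.0807. Vhl, which marks hypoxia-inducible factors for destruction, had 0.14 ± 0.032 and Leo1, a subunit of the elongation complex PAF1, -0.47 ± 0.11, both at 0.0901. Pias3 had log2 levels of 9.05, 9.24 and 9.42 with anti-TWEAK and 9.32, 9.49 and 9.65 with the combination in experiment 7, with 7 of 8 combination mice above every anti-TWEAK mouse. In experiment 10 it lay at 9.09, 9.19 and 9.26 against 9.14, 9.24 and 9.46. In experiment 10 alone, the smallest p belonged to B9d2, a protein of the ciliary base (-0.38 ± 0.089), the sialyltransferase St3gal1 (-0.64 ± 0.15), the Integrator subunit Ints6 (0.24 ± 0.06) and the receptor phosphatase Ptprg (0.23 ± 0.059). Their changes in experiment 7 were -0.049, -0.10, -0.04 and 0.13, and none passed in either experiment.

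The spread among mice differed between the groups for few genes. Dcpp3 and Pate4, named below, are known from other tissues. On absolute deviations from the mean of each group and experiment, limma called 34 genes (0.271%), 29 with more spread in the combination and 5 with less. Dcpp3, a secreted protein known from salivary gland, had 5.02 log2 units more mean deviation in the combination (adjusted p = 1.47e-06). It stood above a level of 5 on 3 combination arrays of experiment 7 and 5 of experiment 10, and the highest anti-TWEAK array had 4.00. Pate4, a secretory gene of the male tract, had 3.15 more (adjusted p = 0.0278), and Gata2, a transcription factor of blood and endocrine cells, 0.92 more (adjusted p = 0.0485). The rest of the 29 genes with more spread are not named here. The 5 with less spread were Best1 (-0.50), Etv4 (-0.44), Ifi27l2b (-0.15), Bcorl1 (-0.11) and Lmln (-0.11), at adjusted p of 0.0262 to 0.0289. The count was 2 when the groups were fitted alone and 0 with deviations from the median. It was 5 without the 4 arrays with Svs2. Without the 9 arrays with Svs2 or Dcpp3 above 5 it was 37, 36 of them with more spread in the combination and 10 shared with the 34. It was 22, 21, 21, 21 and 18 without anti-TWEAK replicates 2, 3, 4, 5 and 8 of experiment 7, and 21 without anti-TWEAK replicate 1 of experiment 10.

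**Figure D5:**
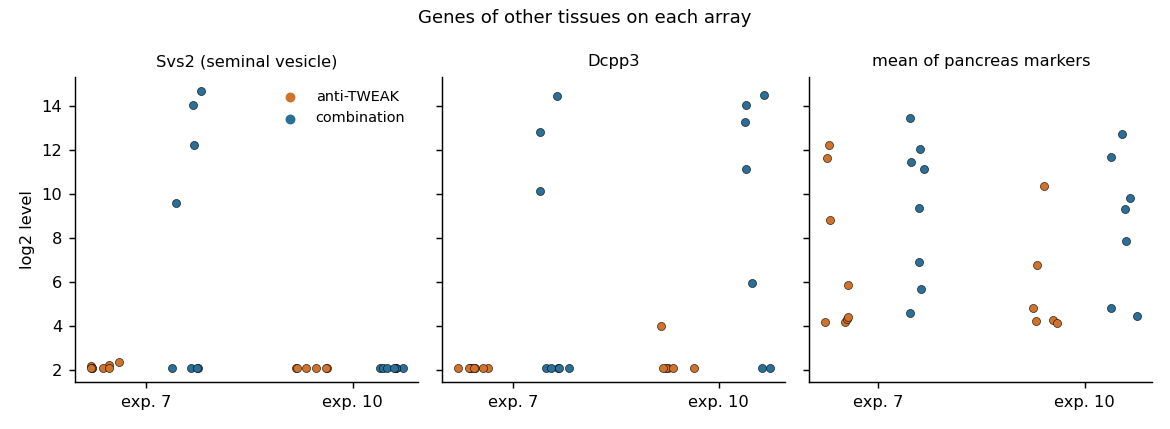
Log2 level (y axis) of Svs2, of Dcpp3 and of the mean of exocrine pancreas markers on each array by experiment (x axis), orange for anti-TWEAK and blue for the combination. Svs2 is high on 4 combination arrays of experiment 7, and the pancreas mean reaches over 9 on arrays of both groups.

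Genes of other tissues stood beside these results. In experiment 7 the largest rises were those of seminal vesicle genes, among them Pate4 (5.45 ± 1.41, adjusted p = 0.0142), Svs6 (5.25 ± 1.40, adjusted p = 0.0165), Svs2 (5.21 ± 1.36, adjusted p = 0.0146), Svs5 (4.79 ± 1.39, adjusted p = 0.0248) and Spinkl (4.78 ± 1.21, adjusted p = 0.0124). Without the 4 arrays with Svs2 the changes of Svs6, Svs2, Svs5 and Spinkl were -0.089, -0.070, -0.47 and -0.0014. These arrays were picked by their Svs2 level, so the loss of the rise is no test of it. The median of Svs2 was 5.82 in the combination and 2.08 with anti-TWEAK there, and 2.08 in both groups in experiment 10. Of 9 pancreas markers, 8 had a higher level in the combination at an unadjusted p under 0.05 over both experiments, against 7.83% of all genes, and none passed. The median change was 2.87, with values such as 3.39 ± 1.42 for trypsinogen Prss2, 3.58 ± 1.53 for the carboxypeptidase Cpb1 and 3.52 ± 1.60 for the elastase Cela3b. With the pancreas mean as a covariate, limma called 415 genes over both experiments and 2491 in experiment 7. Actb, whose 3 prime minus 5 prime difference rises as RNA degrades, had 0.981 to 1.50 in the combination and 0.931 to 1.23 with anti-TWEAK. The part of these tissues in the results was not tested beyond these refits.

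Against colitic mice given a control antibody at the same 10 mg/kg, the combination differed in 3908 genes (31.2%) and anti-TWEAK alone in 351 (2.8%), over both experiments. The mean colitis score with the control antibody was 1.24 in each experiment. That of anti-TWEAK was 1.65 in experiment 7 and 0.42 in experiment 10, on opposite sides of the control, and that of the combination 0.41 and 0.22. The control mice are shared by both comparisons, so their values are given side by side without a test between them. Tnfrsf12a had -0.86 (adjusted p = 0.000374) for the combination and -0.28 (0.467) for anti-TWEAK. Cxcl10 had -1.08 (0.00154) and 0.042 (0.958), Il1b -2.31 (0.000956) and -0.48 (0.698), and S100a8 -1.87 (0.00411) and -0.28 (0.838). Itgae had 0.76 (0.00107) and 0.051 (0.925), and Hspa5 -0.24 (2.5e-05) and -0.10 (0.181). Arntl had -0.73 (7.19e-05) and -0.077 (0.831), and Dbp 1.43 (6.73e-06) and 0.46 (0.309). In each of these genes the combination passed against the control antibody and anti-TWEAK did not, which does not show by itself that the groups differ from each other.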

How the data were processed

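Total colon RNA was hybridised to Affymetrix arrays. The deposited series table holds log2 values per probe set made by the authors, with RMA, GCRMA, R 2.11.1 and limma 3.4.5 named per the submitters' processing notes; how these steps were combined in it was not stated there. Of 45101 probe sets, 34945 had 1 symbol (99.42% matched by Entrez identifier), 932 several, 9160 none, and 64 were controls. Each of 18193 genes took its probe set with the highest mean, and 12534 with a mean of at least 2.42 (40th percentile) were tested. All 72 arrays were fitted in limma 3.58.1 (R 4.3.3), two-sided, with terms for 6 groups and the experiment, or with 11 means of group and experiment for effects within an experiment. Scores were tested with 100000 permutations. The numbers of arrays limit the precision.

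Genes were named by rule: in each contrast and the spread the 8 largest rises and falls that passed or, where fewer than 5 passed, the 8 of smallest p each way; up to 4 members of each of 38 lists by the size of t; all measured TNF and NF-kB members; and the 10 largest rises and 6 largest falls in colitis. Predicted genes and clone names were counted but not named, and the 3 colon markers were chosen as a check of the label. The comparison, members and lists were chosen with earlier results of these data known. The labels call the replicates separate mice. The fits were tested on simulated data. Alternatives were filters, probe sets, normalization, weights, moderation, subsets, covariates, a replicate block and leaving out each array. Figures used matplotlib 3.10.9 under Python 3.11.15. RefSeq promoters were read from a table of GRCm38.p6. Tnfsf12 and some others share probe sets with other genes and were not analysed here.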

Additional observations from a re-analysis of the deposited data

Results flagged for a closer look

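Values are log2 levels. Of 468 groups of arrays tested over 117 measures, 36 (7.69%) held an array set apart from the rest of its group by a gap that chance gives in about 1 of 20 groups.

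In experiment 7, combination replicate 2 had the highest level of its group for the lymphocyte genes Cd3d (7.69, against 4.62 to 5.64 in the others), Cd3e (8.56), Cd8a (5.05), Cd40 (7.04) and Tnfrsf13b (4.13). Combination replicate 7 had the highest Ngp (8.58, against 2.08 to 4.01), Marco (6.85), Csf3 (3.94), Tnfaip3 (11.52), Relb (8.92) and Rela (9.34), and the lowest Hsph1 (11.90). Single values stood apart for Nfkb2 (6.72, replicate 1, lowest), Ccl4 (4.58, replicate 5, highest), B9d2 (3.69, replicate 6, lowest), Etv4 (2.54, replicate 8, highest) and Lmln (2.85, replicate 4, highest) in the combination. With anti-TWEAK they were St3gal1 (7.60, replicate 8) and Lmln (3.18, replicate 5), both highest.

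In experiment 10, anti-TWEAK replicate 6 had the highest Ngp (5.92, the other 5 mice being at 2.08), Marco (6.60), Itgam (3.75) and Dcpp3 (4.00), and the lowest Car4 (13.63) and Aqp8 (10.27, against 11.49 to 11.86). Combination replicate 2 had the highest Marco (5.62), Itgam (3.01), Il11 (4.08) and Spdef (11.63). Other single values were Acadm (12.24) and Ptprg (10.28), lowest in anti-TWEAK replicate 2, and the highest Ciart (2.85), Etv4 (2.95) and Bcorl1 (3.32) in anti-TWEAK replicates 1, 7 and 8. In the combination they were Ifi27l2b (11.96, replicate 1, lowest) and Lmln (2.96, replicate 7, highest).

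The log2 change differed between the experiments, by the test of the difference, for H3f3b (2.07), Anks4b (0.69), Tmem106a (0.62), Adprm (0.57), Fam149b (0.43), Myadm (-0.32) and Etv5 (-0.81).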

How the results depend on the processing

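Of 83 genes called in experiment 7 and examined one by one, 4 turned in direction under 1 alternative, given below. Over both experiments the count of 0 became 305 with array weights, 415 with pancreas markers as a covariate and 1 with the Actb ratio, and 0 to 79 when 1 array was left out; the other alternatives without a replicate block gave 0. In experiment 7 the 1193 became 4564 with array weights, 2491 with the pancreas covariate, 61 with either smaller set of arrays, 448 without the 2 arrays of the second run, 15 without the 4 arrays with Svs2, and 339 to 2877 when 1 array was left out. Of the 83 genes, 16 kept the call with either smaller set of arrays, 40 without the second run, 66 without the filter and 4 without the Svs2 arrays. The Svs2 setting turned Svs6 (-0.089), Svs2 (-0.070), Svs5 (-0.47) and Spinkl (-0.0014). Its arrays were picked by their Svs2 level, so this turn is no test of these genes. In experiment 10 array weights gave 6 genes, and 0 otherwise. The 7 genes that differed between experiments became 1 with no filter or without the second run, 0 with every probe set, with the 2 groups alone or without the Svs2 arrays, 4 with quantile normalization, 1735 with weights and 3 with the pancreas covariate. The 34 spread genes became 225 with no filter, 519 with every probe set, 2 with the 2 groups alone, 22 without the second run, 5 without the Svs2 arrays, 0 with deviations from the median, and 18 to 41 when 1 array was left out. Without the arrays with Svs2 or Dcpp3 there were 37 spread genes, 10 of them shared with the 34. The score difference was -0.20 in experiment 10 alone, -0.71 without the second run, -0.65 without the Svs2 arrays and -0.91 to -0.68 when 1 array was left out. Why these values moved was not tested, apart from the smaller number of arrays or larger number of features in some settings. The settings on the Svs2 and Dcpp3 arrays, the pancreas covariate and the Actb ratio were chosen after seeing the data.

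Replicate numbers did not pair the mice: 2 of 8 pairs in experiment 7 and 2 of 6 in experiment 10 had correlated deviations over 0.1. With the replicate block the counts were 7 over both experiments, 1413 in experiment 7, 0 in experiment 10 and 5 for the difference.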

Other observations

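Gene groups that fit none of the roles above were less clear. Of 10 B and plasma cell markers, 8 were above 0 over both experiments (48.7% of all genes), with a median log2 change of 0.29, and none passed in limma in either experiment. At an unadjusted p under 0.05 there were 1 higher and 1 lower in experiment 7, where 29.5% of all genes had such a p. In experiment 10 there were 3 higher, where 3.53% of all genes had such a p. Ms4a1, the B cell surface protein CD20, had 1.50 ± 0.72 (SE) in experiment 7 and 0.89 ± 0.80 in experiment 10, and Mzb1, a chaperone of antibody-secreting cells, 0.42 ± 0.32 and 0.76 ± 0.36. Of 14 glucocorticoid-responsive genes, 12 were below 0 over both experiments, 4 of them at an unadjusted p under 0.05 (10.2% of all genes), and none passed. Dusp1, a phosphatase of MAP kinases, had -0.26 in both experiments, with SE of 0.12 and 0.13, and Fkbp5, a cochaperone of the glucocorticoid receptor, -0.47 ± 0.20 and -0.20 ± 0.23. Of 22 adaptors and kinases below TNF family receptors, 1 was higher in experiment 7, a share close to the 4.95% of all genes, and none lower. Ikbkg, which encodes the NEMO subunit of the IkB kinase complex, was higher by 0.19 ± 0.059 (adjusted p = 0.0358), against -0.058 ± 0.066 in experiment 10. Alox5ap, needed for leukotriene synthesis and listed as a tuft cell marker, was lower by a log2 change of -1.58 ± 0.48 (adjusted p = 0.0314) in experiment 7, against -0.32 ± 0.54. All 10 skeletal muscle markers were above 0 in experiment 7 (median 0.72) and 9 were below 0 in experiment 10 (median -0.22), and none passed.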
